A study of Mus musculus with 2 samples.

Results

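Mast cells of mouse ear skin were compared between 1 single-cell RNA sequencing (scRNA-seq) library of healthy control skin and 1 library of skin with allergic contact dermatitis (ACD). A cell was taken as a mast cell if the mast cell proteases *Cma1*, *Mcpt4* and *Tpsb2* together held at least 5 unique molecular identifiers (UMIs, counted RNA molecules) and at least 0.3% of its UMIs, with at most 1 UMI of the basophil protease *Mcpt8* and at most 1 UMI of *Cd3d*, *Cd3e* and *Cd3g*, the CD3 chains of T cells. Barcodes outside 200 to 5000 genes, above 25000 UMIs or with 8% or more of mitochondrial UMIs had been left out first, and the rest are called kept cells. These measured values chose the cells, so the levels of the gate genes are given as a description. The rule found 98 mast cells among 12213 kept control cells and 146 among 11665 kept ACD cells, 244 of 23878 in all.

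The mice were of the ICR strain, male and 7 to 8 weeks old according to the methods. ACD mice had their dorsal skin painted with 1% 2,4-dinitrofluorobenzene (DNFB), a contact hapten, and 6 days later their ears with 0.2% DNFB, and the ear skin was taken 60 hr after this elicitation. Control mice gave healthy ear skin. Cells of both groups were freed with collagenase D and DNase1 and sequenced from the 3′ end on the Chromium v2 chemistry. How many mice went into each library is not stated, and cells of 1 library are not replicates, so with 1 library per condition the difference between ACD and control has no test and no replicate check. All intervals below are 95% intervals that cover counting error only.

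Mast cells are long-lived tissue cells that need the receptor KIT and store proteases, histamine, serotonin and proteoglycans in secretory granules. They carry IgE on the high-affinity receptor FcεRI and, in connective tissue, also answer to cationic peptides through Mrgpr receptors. Once activated they release their granules and make lipid mediators, cytokines and chemokines.

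The label was borne out by genes that the rule did not use. *Cpa3*, the mast cell carboxypeptidase, held 734 UMIs in control and 1799 in ACD mast cells and was seen in 90 of 98 and 142 of 146 cells. *Mrgprb1*, a Mrgpr receptor gene, held 114 and 185 UMIs, in 57 and 90 cells. In the other kept cells *Cpa3* stood at 0.728 and 7.84 UMIs per 1000000 and *Mrgprb1* at 0.12 and 0.0805. Over both libraries, the 15 genes with the largest excess in mast cells over all other kept cells were *Cma1*, *Mcpt4*, *Cpa3*, *Tpsb2*, *Tph1*, *Fcer1a*, *Tpsab1*, *Ms4a2*, *Serpinb1a*, *Mrgprb1*, *Kit*, *Cyp11a1*, *Sapcd1*, *Gchfr* and *Slc6a4*. This ranking describes cells that were picked by their RNA and is no test. Among the leading genes, *Tph1* encodes the tryptophan hydroxylase that starts serotonin synthesis and *Slc6a4* the serotonin transporter. *Fcer1a* and *Ms4a2* encode the α and β chains of FcεRI, and *Cyp11a1* the enzyme that starts steroid synthesis.

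Upstream sequences of 4 leading genes are shown because each holds a GATA motif, the DNA letters bound by GATA factors such as GATA2, which mast cells and basophils need. Each run is the 250 bases just before the RefSeq transcription start on GRCm38.p6, written 5′ to 3′ along the gene's strand. Capitals mark AGATAA or TGATAA, or their reverse complements TTATCT and TTATCA.
Mcpt4 (chr14:56062311-56062560, minus strand): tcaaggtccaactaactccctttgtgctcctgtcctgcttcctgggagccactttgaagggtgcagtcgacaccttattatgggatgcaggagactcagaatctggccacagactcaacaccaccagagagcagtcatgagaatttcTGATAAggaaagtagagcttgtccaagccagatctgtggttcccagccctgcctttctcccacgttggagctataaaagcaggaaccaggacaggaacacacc
Cpa3 (chr3:20242182-20242431, minus strand): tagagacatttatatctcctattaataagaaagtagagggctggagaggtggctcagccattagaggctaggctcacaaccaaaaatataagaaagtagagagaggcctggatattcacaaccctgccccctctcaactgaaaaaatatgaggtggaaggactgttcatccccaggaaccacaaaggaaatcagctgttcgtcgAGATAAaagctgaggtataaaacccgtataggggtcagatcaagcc
Fcer1a (chr1:173227230-173227479, minus strand): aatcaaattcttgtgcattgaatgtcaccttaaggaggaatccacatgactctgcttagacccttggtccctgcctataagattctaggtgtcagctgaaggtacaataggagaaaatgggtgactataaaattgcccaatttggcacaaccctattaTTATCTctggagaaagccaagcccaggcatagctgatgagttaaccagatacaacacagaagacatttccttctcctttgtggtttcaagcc
Ms4a2 (chr19:11623720-11623969, minus strand): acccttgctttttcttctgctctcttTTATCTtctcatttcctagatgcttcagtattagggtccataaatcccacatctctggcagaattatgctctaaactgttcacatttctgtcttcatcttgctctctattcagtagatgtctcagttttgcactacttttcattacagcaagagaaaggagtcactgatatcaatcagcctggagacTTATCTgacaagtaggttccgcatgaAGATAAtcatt
Counted from the start, the match began at position -103 in *Mcpt4*, -46 in *Cpa3* and -92 in *Fcer1a*, and the first of 3 matches in *Ms4a2* began at -224. Of the 15 leading genes, 11 matched a RefSeq window (250 bases before to 50 after the start), and 4 of their 14 windows held the motif, 28.6%, against 18.6% of all 32851 windows. A match is a description of letters and not a measured binding site.

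Mast cells were shallow. Their median was 1088.5 UMIs per cell in control (range 500 to 12170) and 1730 in ACD (506 to 15774), against 6850 and 7447 over all kept cells. The summed mast cell UMIs were 161275 and 315925, out of 99037698 and 126566870 deposited UMIs in 12895 and 13163 barcodes. The median share of UMIs in ribosomal protein genes was 24.1% in control and 28.3% in ACD mast cells. The deepest mast cell held 7.55% of the mast cell UMIs of control and 4.99% of those of ACD. Both libraries shared 50 barcodes, 1 of which was a mast cell in either library and 0 in both.

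**Figure D1:**
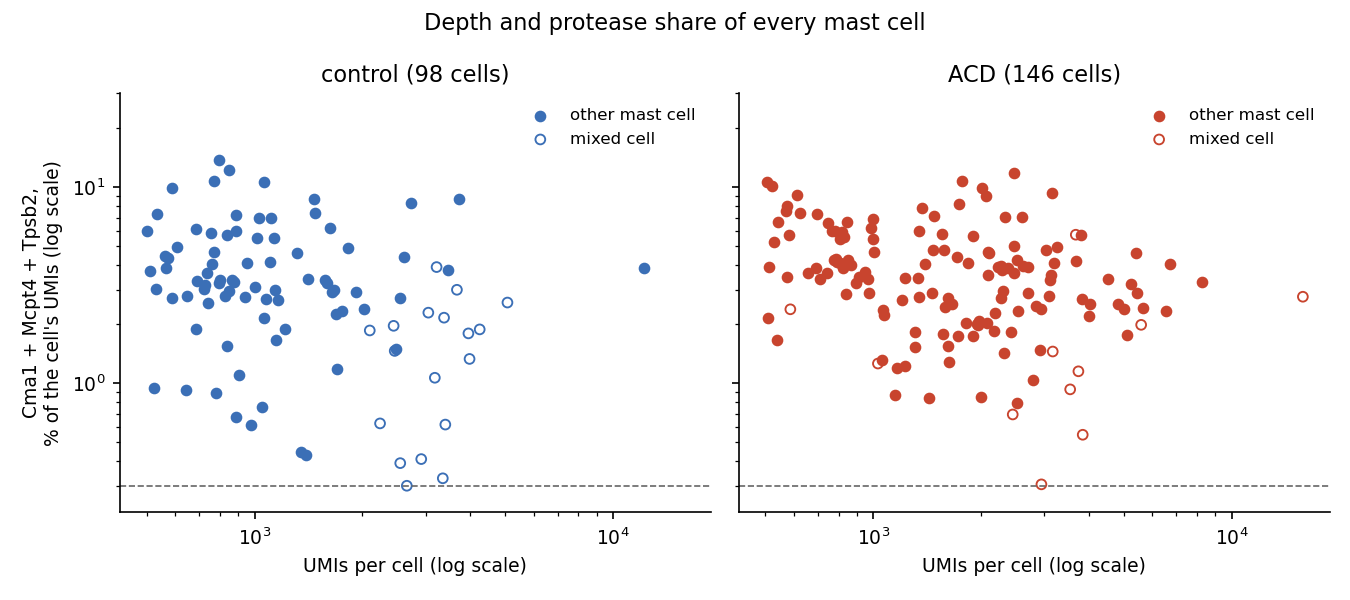
Every mast cell by its UMIs (x axis, log scale) and the percentage of them in *Cma1*, *Mcpt4* and *Tpsb2* (y axis, log scale), control on the left and ACD on the right. The dashed line is the limit of 0.3%, and open circles are the 18 control and 11 ACD mixed cells, which lie mostly among the deeper cells of each library.

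Near the limits of the rule, 9 control mast cells held 5 to 8 protease UMIs and 2 ACD mast cells held 9. Just outside stood 1 control cell with 3 UMIs (0.579% of its UMIs) and 3 control cells with at least 5 UMIs but a share of 0.194 to 0.278%. In ACD 0 cells stood in either place. CD3 UMIs kept out 1 control and 7 ACD cells, and *Mcpt8* kept out 1 ACD cell. A further 6 cells of each library met the gene limits but failed the filter on cells.

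Some mast cells carried genes of another cell type. A cell was called mixed if it held at least 2 UMIs of each of at least 3 markers of 1 other type. In control 18 of 98 mast cells were mixed (18.4%, 11.3 to 27.5%), and in ACD 11 of 146 were (7.53%, 3.82 to 13.1%). Of these, 17 and 9 carried dermal fibroblast markers. They were deep and held 35.9% of the mast cell UMIs of control and 14.7% of those of ACD. Scrublet, a doublet caller, marked 4 control and 3 ACD mast cells, out of 571 and 384 calls over all kept cells. Possible doublets stayed in the values below, and the values without mixed cells stand beside the results they touch.

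Defining markers of macrophages and eosinophils were not found in mast cells. The macrophage genes *C1qa*, *C1qb*, *C1qc*, *Mrc1*, *Csf1r*, *Adgre1* and *Fcgr1* held 0 UMIs in both libraries, as did all 7 eosinophil markers, which allows at most 3 UMIs of 161275 and of 315925 per gene. The level of a gene below is its UMIs summed over the mast cells of a library, per 1000000 UMIs of those cells. The 10 macrophage markers together stood at 1383 (1207 to 1577) in control and 554 (475 to 642) in ACD, all of it from *Apoe*, *Lyz2* and *Cd68*. The 10 T cell markers stood at 112 (66.1 to 176) and 114 (79.8 to 158), with *Cd4*, *Cd8a*, *Cd28* and *Lck* at 0 UMIs in control, while the CD3 genes were limited by the rule. The 8 basophil markers stood at 440 (344 to 555) in control, in 37 of 98 cells, and 279 (223 to 343) in ACD, in 67 of 146 cells, against 237 and 478 in the other kept cells. Of their 71 and 88 UMIs, 47 and 67 were of *Csf1*, a growth factor gene, and *Prss34* and *Ccr3* were at 0. Cartilage markers, used here to gauge free RNA in the droplets, stood at 366 (278 to 472) and 218 (170 to 276), against 3728 and 2996 in the other kept cells. The 10 dermal fibroblast markers stood at 14082 (13508 to 14673) in control and 2545 (2372 to 2727) in ACD, and 2154 of their 2271 control UMIs and 614 of their 804 ACD UMIs lay in mixed cells.

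The main comparison asked which genes of mast cells differed in level between control and ACD skin. Of 1220 genes with at least 50 UMIs in mast cells of both libraries together, 22 (1.8%) were at least 2-fold higher in ACD and 43 (3.52%) at least 2-fold lower, on the scale of log2 of level plus 10. The median of all 1220 log2 ratios was 0.01. Higher genes were led by *Grp*, *F2r* and genes of MHC class I antigen presentation, and lower genes by *Ccl4* and matrix genes of fibroblasts. Median-of-ratios scaling, which moved that median to 0.16, gave 38 higher and 39 lower genes, so the share of higher genes among those counted went from 33.8% to 49.4%. Without mixed cells, 964 genes reached 50 UMIs, and 21 (2.18%) were higher and 17 (1.76%) lower, which made 55.3% of them higher. With and without mixed cells, the same 12 genes were higher and the same 8 lower. Those 12 were *Grp*, *F2r*, *B2m*, *H2-K1*, *Psme2*, *Nhp2*, *Ctla2a*, *Maob*, *Tmem258*, *Nucb1*, *Rab10* and *Ndufs6*, and the 8 were *Ccl4*, *Dcn*, *Mgp*, *Gadd45g*, *Cxcl2*, *Apoe*, *Cytl1* and *Arl4c*. All control *Ccl4* UMIs lay in 2 mast cells and all control *Cxcl2* UMIs in the deepest cell. Both ratios turned positive in some alternatives given below. *Dcn*, *Mgp*, *Apoe* and *Cytl1* had levels of 10531, 2478, 4317 and 3815 in the other kept cells of both libraries together. Whether their RNA in mast cells came from other cells was not tested.

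**Figure D2:**
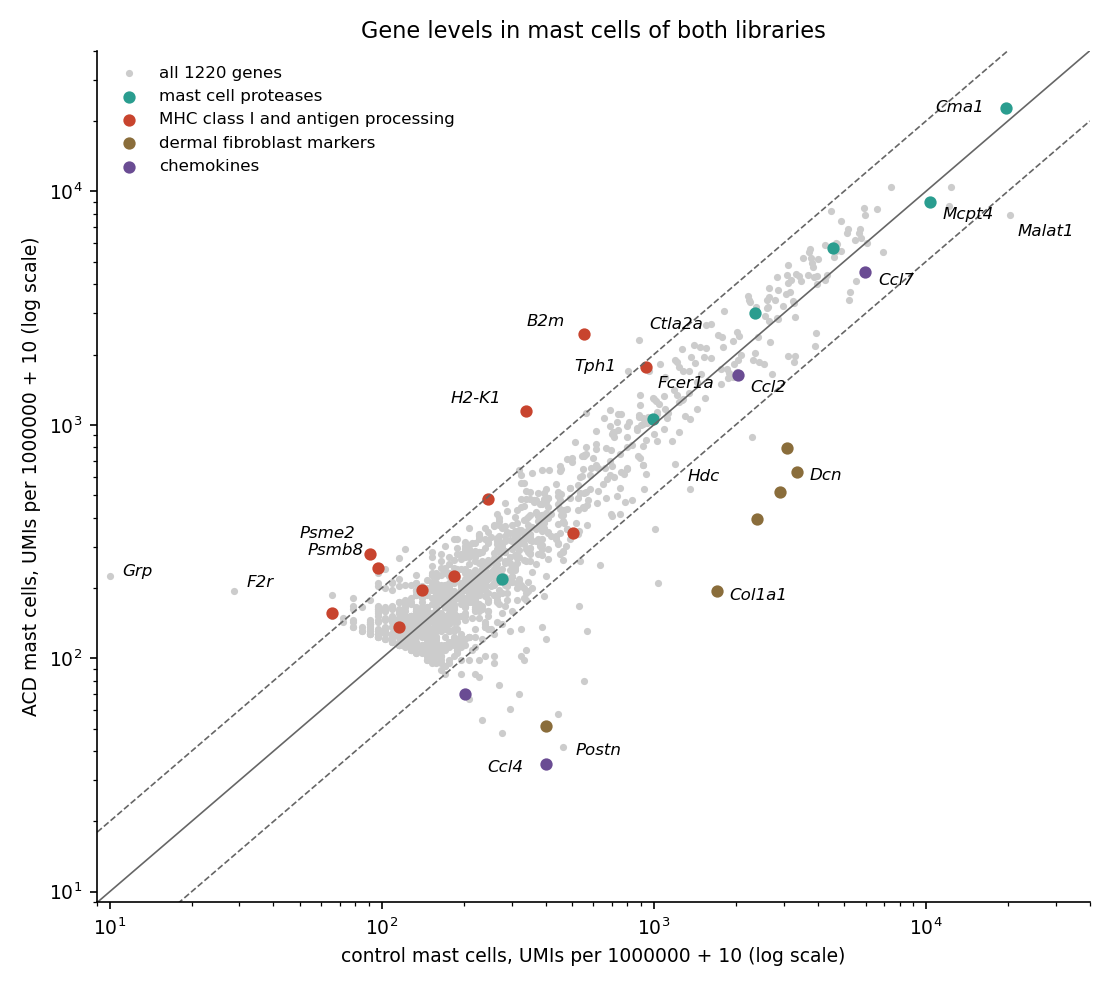
Level of each of 1220 genes in control (x axis) and ACD (y axis) mast cells, in UMIs per 1000000 plus 10, on log scales; the solid line marks equal levels and the dashed lines 2-fold. Class I genes such as *B2m* and *H2-K1* lie above the upper dashed line, mast cell proteases lie between the dashed lines, and the fibroblast markers, such as *Col1a1* and *Dcn*, lie below the lower one. The proteases *Cma1*, *Mcpt4* and *Tpsb2* also chose the cells.

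MHC class I presents peptides from inside the cell to CD8+ T cells. Its heavy chain pairs with β2-microglobulin (*B2m*), and the peptides are cut by the immunoproteasome (*Psmb8*, *Psmb9*) with its PA28 activator (*Psme1*, *Psme2*) and loaded with the help of tapasin (*Tapbp*) and calreticulin (*Calr*). Of 24 listed genes of this pathway, 11 reached 50 UMIs, and 5 of them were at least 2-fold higher in ACD mast cells and 0 lower. Over all 1220 genes, 1.8% were higher and 3.52% lower. The median log2 ratio of the list was 0.97 against 0.01 for all genes. Without mixed cells 4 of 9 were higher, against 2.18% of all genes, with a median of 0.87. The list as a whole went from 538 to 2467 UMIs, a log2 ratio of 1.23 (1.09 to 1.36). The same list was also higher in the other kept cells of ACD skin, by a log2 ratio of 1.72, and whether mast cells differed from them was not tested.

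*B2m* (chr2:122147686-122153083) held 88 UMIs in 48 control mast cells and 769 UMIs in 135 ACD mast cells. Its level was 546 (438 to 672) in control and 2434 (2265 to 2612) in ACD. The log2 ratio was 2.16 (1.84 to 2.49). The class I heavy chain gene *H2-K1* (chr17:33996017-34000347) held 53 and 359 UMIs, levels of 329 (246 to 430) and 1136 (1022 to 1260), a log2 ratio of 1.79 (1.37 to 2.23). The other classical heavy chain gene, *H2-D1*, held 149 and 558 UMIs, with a log2 ratio of 0.93 (0.67 to 1.21). In control, 1 cell, the deepest, held 70 of the *H2-D1* UMIs and 22 of those of *H2-K1*. Without the deepest cell of each library the ratio of *H2-D1* on the level plus 10 scale was 1.74 in place of 0.93, past 2-fold, and that of *H2-K1* was 2.44 in place of 1.76. These heavy chain genes and *H2-Q4* are close copies of each other, so reads may be split or dropped between them.

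Of the genes of peptide processing and loading, *Psme2*, *Psmb8* and *Tapbp* passed 2-fold. *Psme2* held 13 UMIs in control and 85 in ACD (log2 ratio 1.74, 0.89 to 2.71), *Psmb8* 14 and 74 (1.43, 0.60 to 2.37) and *Tapbp* 9 and 46 (1.38, 0.34 to 2.60). Without mixed cells the level plus 10 ratio of *Psmb8* was 0.87, below 2-fold. *Calr*, at 38 and 149 UMIs, stood at 0.97 on that scale, just short of 2-fold, and *Psme1*, at 21 and 59 UMIs, at 0.49. The genes of this list below 50 UMIs included *Psmb9* with 4 and 33 UMIs and *H2-Q4* with 2 and 21. *Hspa5*, a chaperone of the endoplasmic reticulum on the same list, held 80 and 105 UMIs, a lower level in ACD (-0.58, -1.01 to -0.14). MHC class II genes, which present to CD4+ T cells, summed to 2 UMIs in control and 14 in ACD over 8 genes, and 0 of them reached 50 UMIs.

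The sequence before *B2m* is shown because the class I genes were higher together and this one holds an interferon-type motif, in capitals: GAAA, any 2 bases and GAAA again, searched on both strands. The 250 bases end at the RefSeq start on GRCm38.p6.
B2m (chr2:122147437-122147686, plus strand): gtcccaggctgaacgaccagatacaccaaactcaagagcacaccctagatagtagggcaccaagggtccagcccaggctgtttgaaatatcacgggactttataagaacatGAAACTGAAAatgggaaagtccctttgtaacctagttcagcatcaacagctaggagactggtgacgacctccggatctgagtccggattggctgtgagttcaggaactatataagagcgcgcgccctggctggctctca
The match began at position -139. It was in 1 of 8 windows of the genes *B2m*, *H2-K1*, *H2-D1*, *Psme2*, *Psmb8* and *Tapbp*, 12.5%, against 3.44% of all windows, and its letters are no measured site. Another motif searched, TTC, any 3 bases and GAA, was in 1 of the 8 windows, 12.5%, against 8.30% of all windows. Looser forms of either motif were not searched, so a window without a match may still hold a related one.

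To set cells of unequal depth side by side, each mast cell was thinned to 1000 UMIs. This left 56 control and 104 ACD cells and left out 42 of each library. Of the 18 control and 11 ACD mixed cells, 0 and 1 were left out. Mixed cells thus weigh more among thinned cells than among all mast cells, most of all in control. Thinned shares without mixed cells are not given. *B2m* was then seen in 32.1% (20.3 to 46.0%) of control and 81.7% (72.9 to 88.6%) of ACD mast cells, and unthinned in 49.0% and 92.5%. *H2-K1* was seen in 21.4% (11.6 to 34.4%) and 65.4% (55.4 to 74.4%), and *Psme2* in 7.14% (1.98 to 17.3%) and 29.8% (21.2 to 39.6%). Unthinned, the shares were 23.5% and 76.0% for *H2-K1* and 12.2% and 43.2% for *Psme2*. Cartilage cells, with median depths of 8457 and 10275 UMIs and 0 left out, were set beside them. Thinned in the same way, they gave *B2m* in 17.5% and 45.0%, *H2-K1* in 7.24% and 37.9% and *Psme2* in 5.64% and 9.16% of cells. Unthinned they held *B2m* in 79.6% and 92.3%, *Psme2* in 45.0% and 48.9% and *H2-D1* in 97.5% and 99.4%. For class I genes their share is therefore no clean measure of free RNA. With the RNA profile of the other kept cells subtracted, scaled to the cartilage markers found in mast cells, the ratios on the level plus 10 scale were 2.14 for *B2m* and 1.70 for *H2-K1*, against 2.14 and 1.76 before. *H2-D1* was seen in 46.4% of control mast cells against 41.4% of control cartilage cells, and in 79.8% of ACD mast cells against 75.2%, and unthinned in 49.0% and 92.5% of mast cells. After the same subtraction its ratio was 0.78, against 0.93 before.

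**Figure D3:**
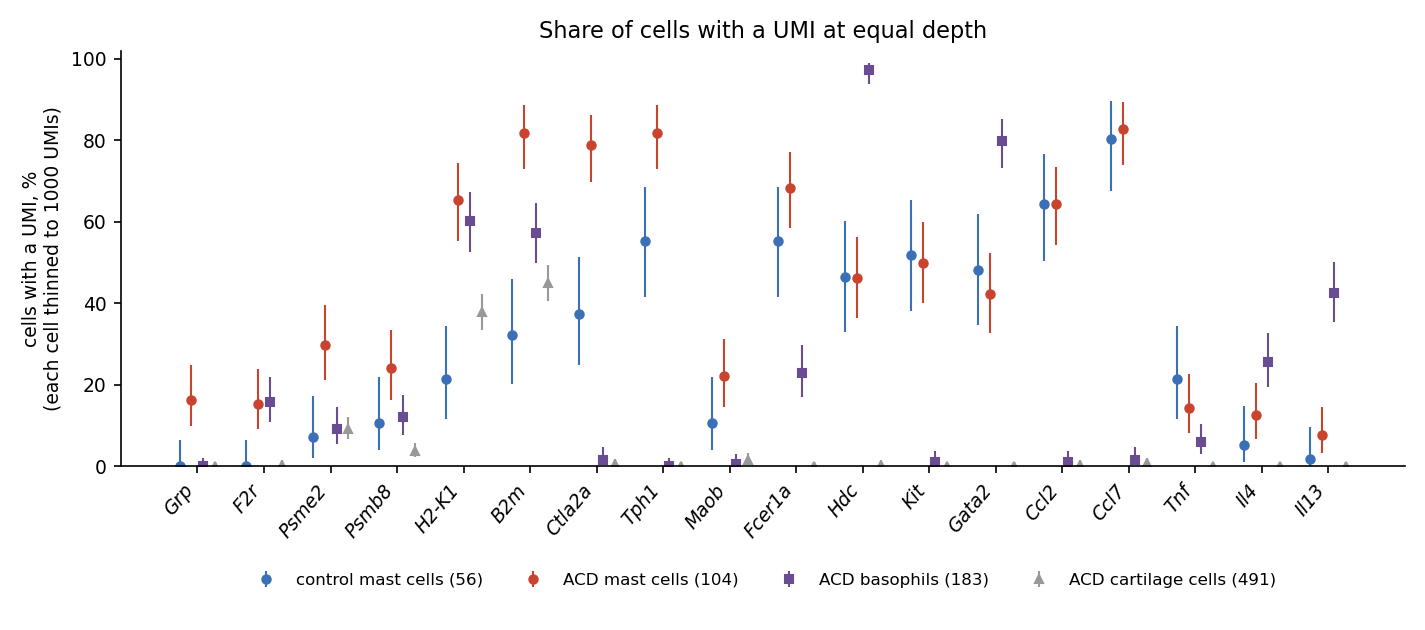
Percentage of cells with at least 1 UMI of each gene (y axis) after each cell was thinned to 1000 UMIs, for control mast cells (56 cells), ACD mast cells (104), ACD basophils (183) and ACD cartilage cells (491); bars are exact 95% binomial intervals. Control and ACD mast cells are furthest apart for *B2m*, *H2-K1* and *Ctla2a*, and their intervals overlap for *Hdc*, *Kit* and *Ccl7*.

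*Grp* and *F2r* had the largest ratios. *Grp* encodes gastrin-releasing peptide, a neuropeptide linked to itch. It held 0 UMIs in control mast cells and 68 in ACD mast cells, 215 (167 to 273) per 1000000, at least 11.6-fold higher if control is given 3 UMIs. The 68 UMIs lay in 27 of 146 cells, with at most 9 in a cell. *Grp* was close to absent elsewhere, at 1.22 and 1.39 UMIs per 1000000 in the other kept cells and 0 UMIs in ACD basophils. After thinning a UMI was seen in 0 of 56 control cells (exact interval 0 to 6.38%), which limits cells with a UMI and not cells expressing *Grp*, and in 17 of 104 ACD cells, 16.3% (9.82 to 24.9%), against 0 of 691 and 0 of 491 cartilage cells. Unthinned, it was in 18.5% of ACD mast cells.

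*F2r* (chr13:95601803-95618487) encodes protease-activated receptor 1, the thrombin receptor. It held 3 UMIs in 2 control mast cells and 58 UMIs in 37 ACD mast cells, a log2 ratio of 3.30 (1.68 to 5.62). Its level in ACD was 184 (139 to 237), close to the 196 of ACD basophils, and the other kept cells stood at 25.6 and 35.3. After thinning it was seen in 0 of 56 and 16 of 104 mast cells (15.4%, 9.06 to 23.8%), against 1.30% and 0.407% of cartilage cells. Unthinned, the shares were 2.04% and 25.3% of mast cells, and 9.70% and 10.8% of the deeper cartilage cells. Among ACD mast cells, 10 held both *Grp* and *F2r*, 17 *Grp* only, 27 *F2r* only and 92 neither, and cells with both had a median of 1994.5 UMIs against 1339.5 in cells with neither.

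*Tph1*, *Maob* and *Ctla2a* were also at least 2-fold higher in ACD mast cells. *Tph1* (chr7:46644641-46672537) held 128 UMIs in 58 control cells and 535 in 112 ACD cells, levels of 794 (662 to 944) and 1693 (1553 to 1843), a log2 ratio of 1.09 (0.81 to 1.38). The other kept cells had levels of 0.196 and 0.201, and ACD basophils held 1 UMI. *Maob*, whose product breaks down amines, went from 18 to 90 UMIs, a log2 ratio of 1.35 (0.61 to 2.17). *Slc6a4*, the serotonin transporter, held 71 and 105 UMIs with a ratio of -0.41 (-0.85 to 0.05). *Ctla2a*, an inhibitor of cysteine cathepsins, held 141 UMIs in 44 control cells and 728 in 121 ACD cells, a log2 ratio of 1.40 (1.14 to 1.67), and was at 68.3 and 337 in the other kept cells. One ACD mast cell held 95 of the *Ctla2a* UMIs. With each cell given equal weight, the level plus 10 ratios of *Tph1*, *Maob* and *Ctla2a* were 0.76, 0.80 and 0.91, below 2-fold, and that of *Tph1* without mixed cells was 0.89.

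The rest of the 15 highest genes are known for roles outside immunity. *Nhp2*, a protein of small nucleolar RNA particles, went from 9 to 56 UMIs (log2 ratio 1.67, 0.64 to 2.87). *Tmem258*, *Nucb1*, *Eef1g*, *Aprt* and *Rab10* had ratios of 1.30 to 1.35 on 9 to 17 control UMIs. Of these, *Eef1g* encodes a translation elongation factor subunit and *Aprt* a purine salvage enzyme. Without mixed cells *Eef1g* stood at 0.81 and *Aprt* at 0.82 on the level plus 10 scale, below 2-fold. *Pgam1*, a glycolytic enzyme named from its list, went from 11 to 48 UMIs (1.16, 0.19 to 2.25).

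Of 14 listed proteases, the main granule cargo, 6 reached 50 UMIs and 0 were called in either direction, with a median of 0.16. The shares over all genes were 1.8% higher and 3.52% lower. Because *Cma1*, *Mcpt4* and *Tpsb2* are among the 6, the count and the medians of this list partly rest on values that chose the cells. *Cma1*, a chymase, held 3169 and 7213 UMIs (log2 ratio 0.22, 0.16 to 0.28), *Mcpt4*, the other main chymase of connective tissue mast cells, 1666 and 2829 (-0.21, -0.29 to -0.12), and the tryptase gene *Tpsb2* 377 and 953 (0.37, 0.19 to 0.54), but these are the genes that chose the cells. Outside the rule, *Cpa3* had a ratio of 0.32 (0.20 to 0.45), the tryptase gene *Tpsab1* 0.10 (-0.18 to 0.38) on 158 and 332 UMIs, and the cathepsin G gene *Ctsg* -0.35 (-0.93 to 0.24) on 43 and 66. *Tpsb2* and *Tpsab1* are close copies, so their split is uncertain. Without mixed cells the median of the list was -0.17 and the ratio of *Cpa3* 0.01. The *Cpa3* share of a cell's UMIs had a median of 0.348% in control and 0.509% in ACD, with interquartile ranges of 0.148 to 0.637% and 0.275 to 0.852% that overlap.

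Of 18 genes of the granule matrix and biogenic amines, 13 reached 50 UMIs, and *Tph1* and *Maob* were the 2 called higher, with 0 lower and a median of -0.23. The shares over all genes were 1.8% higher and 3.52% lower. *Hdc*, which makes histamine, held 192 UMIs in 60 control cells and 211 in 92 ACD cells, levels of 1191 (1028 to 1371) and 668 (581 to 764), a log2 ratio of -0.83 (-1.12 to -0.54). It was seen in 46.4% and 46.2% of thinned cells, where its level plus 10 ratio was -0.29, and unthinned in 61.2% and 63.0%. Without mixed cells the level plus 10 ratio was -1.08, past 2-fold. *Srgn*, the core protein of the granule proteoglycan, had a ratio of 0.12 (-0.04 to 0.28) on 481 and 1021 UMIs. *Hs6st2*, a heparan sulfotransferase, went from 29 to 91 UMIs (0.68, 0.06 to 1.34), and the vesicle amine transporter gene *Slc18a2* from 43 to 93 (0.14, -0.39 to 0.70).

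The α chain of the IgE receptor had a higher level in ACD, within 2-fold, while the intervals of the β and γ chains included 0. *Fcer1a* held 153 and 532 UMIs, levels of 949 (804 to 1111) and 1684 (1544 to 1833), a log2 ratio of 0.83 (0.57 to 1.10) that stayed below 2-fold. *Ms4a2* (β) held 150 and 318 UMIs (0.11, -0.17 to 0.40) and *Fcer1g* (γ) 283 and 542 (-0.03, -0.24 to 0.18). Of 22 listed genes of the receptor and its signaling, 9 reached 50 UMIs and 0 were called, with a median of 0.05. With 1.8% of all genes called higher and 3.52% lower, 0 of 9 is near the share over all genes. Without mixed cells the ratios were 0.59 for *Fcer1a*, -0.11 for *Ms4a2* and -0.20 for *Fcer1g*. *Lyn*, the kinase next to the receptor, had a ratio of -0.61 (-1.36 to 0.16), *Lat2* -0.05 (-0.52 to 0.44) and *Prkcb* 0.51 (-0.18 to 1.25).

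Of 19 lineage genes, 8 were tested and 0 called, with a median of 0.07. Over all 1220 genes, 1.8% were called higher and 3.52% lower, so 0 called among few genes is near that share. *Kit* held 93 and 203 UMIs (log2 ratio 0.16, -0.20 to 0.53), *Gata2* 142 and 224 (-0.31, -0.62 to 0.00), *Mitf* 19 and 39 (0.07, -0.76 to 0.94) and *Tal1* 26 and 54 (0.08, -0.62 to 0.82). Of 40 activating receptors, 5 were tested and 0 called, with a median of 0.43. Among them were *Csf2rb2*, the β chain of the IL-3 receptor, at 51 and 189 UMIs (0.92, 0.47 to 1.40), its close copy *Csf2rb* at 97 and 257 (0.44, 0.09 to 0.79), *Il1rl1*, the IL-33 receptor, at 38 and 76 (0.03, -0.55 to 0.63), and *Mrgprb1* (-0.27, -0.62 to 0.08). *Mrgprb2*, the receptor for cationic peptides and many drugs, was below 50 UMIs, with 19 in control and 14 in ACD (-1.41, -2.52 to -0.34). Of 34 inhibitory and surface receptors, 6 were tested and 1, the tetraspanin *Cd9*, was called lower, with 61 and 40 UMIs. Its ratio without mixed cells was -0.46 in place of -1.58. *Milr1*, an inhibitory receptor also called allergin, had 1 UMI in control and 18 UMIs in 17 ACD cells (3.20, 0.54 to 8.58).

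Chemokine genes were abundant in mast cells of both libraries. *Ccl7* (chr11:82045712-82047525), a monocyte chemoattractant, held 964 UMIs in 81 control cells and 1422 in 133 ACD cells, levels of 5977 (5606 to 6367) and 4501 (4270 to 4741), a log2 ratio of -0.41 (-0.53 to -0.29). *Ccl2*, the related gene beside it, held 327 and 511 UMIs, with a ratio of -0.33 (-0.53 to -0.12). The deepest control cell alone held 157 of the *Ccl7* and 96 of the *Ccl2* UMIs. Without the deepest cell of each library the ratio was -0.20 for *Ccl7* and 0.13 for *Ccl2*, and the shares of thinned cells were 80.4% and 82.7% for *Ccl7* and 64.3% and 64.4% for *Ccl2*. Unthinned they were 82.7% and 91.1%, and 65.3% and 76.0%. Both genes were found together in 56 of 98 control and 105 of 146 ACD mast cells. In the other kept cells *Ccl7* was at 761 and 440 per 1000000. Of cartilage cells, 2.03% and 0.815% held a UMI after thinning, and 12.3% and 11.8% unthinned.

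*Ccl4* and *Cxcl2*, which draw monocytes and neutrophils, were the 2 genes called lower among 4 tested of 29 listed chemokines and receptors, with 0 called higher. Over all genes 3.52% were lower. The median of the 4 was -0.97, which depends on these 2 genes and is no measure of chemokine genes at large. Both ratios turned positive in some alternatives. Few control cells carried either gene. All 63 control *Ccl4* UMIs lay in 2 cells, with 35 and 28 UMIs, which had 885 and 646 UMIs in all. Each held 6 UMIs of the gate proteases, near the limit of 5, and they also held 19 and 17 UMIs of *Ccl3* and 1 and 4 of *Ifitm1*, which are abundant in basophils. Their *Mcpt8* counts were limited by the rule. Whether these are basophils was not tested. ACD mast cells held 8 *Ccl4* UMIs in 8 cells. All 31 control *Cxcl2* UMIs lay in the deepest cell, and ACD mast cells held 19 in 7 cells.

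Cytokine genes were at low counts. Of 34 listed, 4 reached 50 UMIs and 0 were called, with a median of 0.18. That is near the share over all genes, 1.8% higher and 3.52% lower. *Tnf* held 32 UMIs in 26 control cells and 65 in 41 ACD cells (log2 ratio 0.05, -0.58 to 0.71), *Il6* 16 and 42 UMIs (0.42, -0.44 to 1.35), *Csf1* 47 and 67 (-0.46, -1.02 to 0.11) and *Tgfb1* 24 and 59 (0.33, -0.38 to 1.08). Below 50 UMIs, *Il13* held 9 UMIs in 4 control cells and 23 in 16 ACD cells, and *Il4* 10 UMIs in 10 control cells and 38 in 31 ACD cells. *Il4* and *Il13*, the type 2 cytokines, were found together in 0 control and 7 ACD mast cells. *Osm* had 4 and 25 UMIs (1.67, 0.14 to 3.66) and *Lif*, a cytokine of the same family, 1 and 16 (3.03, 0.34 to 8.42).

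Genes induced by interferon were mostly below 50 UMIs. For comparison, 1.8% of all tested genes were called higher and 3.52% lower. Of 40 listed, 3 were tested and 0 called, with a median of -0.75: *Ifitm2* (log2 ratio -0.76, -1.14 to -0.38), *Ifitm3* (-0.86, -1.38 to -0.34) and *Irf1* (0.77, -0.19 to 1.83). Without mixed cells, which left 4 and 25 UMIs, the ratio of *Ifitm3* was 1.26. The listed genes below 50 UMIs together held 82 UMIs in control and 274 in ACD, a log2 ratio of 0.77 (0.41 to 1.14). Among them, *Gbp7*, an interferon-induced GTPase, had 2 UMIs in control and 17 UMIs in 16 ACD cells (2.12, 0.04 to 5.28). *Cxcl9* and *Cxcl10* had 0 UMIs in control and 22 and 19 in ACD, but all 22 of *Cxcl9* lay in 1 cell and 17 of *Cxcl10* lay in 1 cell.

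**Figure D4:**
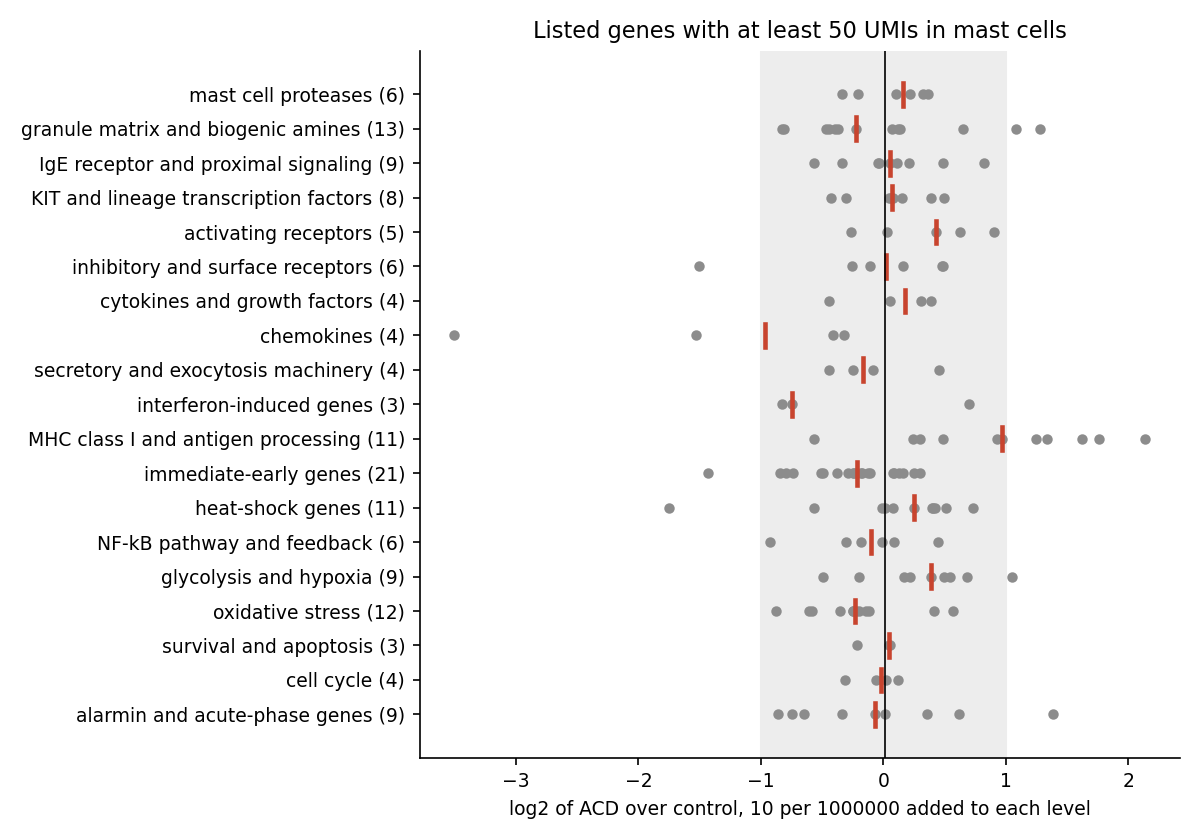
Log2 ratio of ACD over control (x axis, 10 per 1000000 added to each level) of the genes of each list with at least 50 UMIs, 1 grey point per gene, with the list's median as a red bar and the number of genes in parentheses. The grey band spans 2-fold in either direction and the black line is the median of all genes, 0.01; class I and antigen processing has its median at 0.97, at the edge of the band.

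Stress and metabolic lists had medians from -0.23 to 0.39, against 0.01 for all genes, and few of their genes were called. Few were called over all genes too, 1.8% higher and 3.52% lower. Of 21 immediate-early genes, 0 were called higher and 1 lower, *Nr4a2*, a nuclear receptor with 40 and 27 UMIs, with a median of -0.22. *Fos*, a subunit of the AP-1 factor, had a ratio of -0.85 (-1.01 to -0.69) on 630 and 686 UMIs, and *Fosb* 0.25 (0.04 to 0.46). Of 11 heat-shock genes, 0 were higher and 1, *Hspb1*, lower, with a median of 0.25. Without mixed cells neither *Nr4a2* nor *Hspb1* reached 50 UMIs. Glycolysis and hypoxia had 9 tested, 1 higher (*Pgam1*), 0 lower and a median of 0.39, with *Gapdh* at 0.55 (0.33 to 0.77). Oxidative stress had 12 tested, 0 called and a median of -0.23, the NF-kB pathway 6, 0 and -0.10, secretory and exocytosis machinery 4, 0 and -0.17, survival and apoptosis 3, 0 and 0.05, and lipid mediator synthesis 2, 0 and -0.19. Of 9 tested genes on the alarmin and acute-phase list, 1 was called higher and 0 lower. The 1 was *Ctla2a*, which encodes a cathepsin inhibitor and is no alarmin or acute-phase gene, so no such gene was called. *Lgals1*, a secreted lectin, had a ratio of 0.62 (0.44 to 0.79).

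Of the 23 cell cycle genes, 4 were tested and 0 called, with a median of -0.02, against 1.8% higher and 3.52% lower over all genes. The list held 919 UMIs in control and 1799 in ACD mast cells. A narrower set of 8 genes of proliferating cells held 59 UMIs in 5 of 98 control cells, 54 of them in 2 cells, and 81 UMIs in 21 of 146 ACD cells, 53 of them in 4 cells.

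After *Ccl4*, the 14 next lowest genes in ACD were *Postn*, *Col1a1*, *Lum*, *Apod*, *Aspn*, *Col3a1*, *Plpp3*, *Col1a2*, *Dcn*, *Mgp*, *Col6a1*, *Fn1*, *Timp2* and *Mmp2*, many of which encode proteins of the extracellular matrix. *Col1a1*, a chain of type I collagen, held 273 UMIs in 24 control cells and 58 in 18 ACD cells, a log2 ratio of -3.20 (-3.64 to -2.79), and its ratio without mixed cells was -1.27. *Dcn*, the proteoglycan decorin, held 538 and 195 UMIs (-2.43, -2.68 to -2.20), and -1.08 without mixed cells. All 6 fibroblast markers with at least 50 UMIs were called lower, against 3.52% of all genes. Mixed cells held 2154 of the 2271 control UMIs of the 10 fibroblast markers. Without mixed cells *Col1a1*, *Col1a2*, *Col3a1* and *Lum* fell below 50 UMIs. On the level plus 10 scale *Sparc* then stood at -0.26, within 2-fold, and *Dcn* at -1.03. *Postn*, with 73 and 10 UMIs, had a ratio of -3.84 (-4.96 to -2.88), and -0.38 without mixed cells. Of the 43 lower genes, 29 fell below 50 UMIs once mixed cells were left out. The share of mixed cells and the fibroblast markers moved with these genes, and the level of *Col1a1* in the other kept cells was also lower in ACD, 5701 in control against 2117. The part of these cells in the result was not tested beyond leaving them out.

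*Malat1*, *Apoe* and *Mgp*, other lower genes, differed in what mixed cells held. *Malat1*, a nuclear RNA, had 3272 and 2499 UMIs, levels of 20288 (19599 to 20996) and 7910 (7603 to 8226), a log2 ratio of -1.36 (-1.43 to -1.28), and its level in the other kept cells was 23448 and 21010. Without mixed cells, which left 1254 and 1684 UMIs, its ratio was -0.96. It was seen in 92.9% of control and 81.7% of ACD mast cells after thinning (89.8% and 84.2% unthinned), against 99.1% and 99.2% of cartilage cells. *Apoe*, on the macrophage list, had 217 and 165 UMIs and a level plus 10 ratio of -1.35, and -1.39 without mixed cells, with 5804 and 2941 in the other kept cells. *Mgp*, an inhibitor of calcification, had a ratio of -2.36 (-2.80 to -1.93) and -2.77 without mixed cells.

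Mast cells made up 0.802% (0.652 to 0.977%) of the kept cells of control skin and 1.25% (1.06 to 1.47%) of those of ACD skin. The log2 ratio of these shares was 0.64 (0.26 to 1.03). This share also depends on how many other cells each library holds and on which cells survived the dissociation, and these cannot be told apart with 1 library per condition.

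Basophils, the blood-borne relatives of mast cells, served as a second point of comparison. They were gated by at least 3 *Mcpt8* UMIs with at most 1 UMI of the mast cell proteases and at most 1 of CD3, which found 2 control and 183 ACD cells, so that the comparison was made within ACD. The levels of these genes were fixed by the gates. Of 2738 genes with at least 50 UMIs in both cell types together, 503 (18.4%) were at least 2-fold higher in mast cells and 613 (22.4%) at least 2-fold lower, with a median of -0.03.

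Besides the gated proteases, mast cells held more RNA of *Tph1*, *Kit*, *Mrgprb1* and the chemokines *Ccl2* and *Ccl7*. *Tph1* held 535 UMIs in mast cells and 1 in basophils, a log2 ratio of 10.56 (8.07 to 15.86). *Tpsab1* and *Mrgprb1* held 332 and 185 UMIs against 0, at least 312-fold and 174-fold higher with basophils given 3 UMIs. *Kit* was at 203 against 7 UMIs (6.35, 5.28 to 7.68), *Sapcd1* at 290 against 1, *Vwa5a* at 323 against 16 and *Gchfr*, a regulator of tetrahydrobiopterin synthesis, at 123 against 0. *Ccl2* stood at 511 against 17 UMIs (6.40, 5.71 to 7.19) and *Ccl7* at 1422 against 111 (5.17, 4.89 to 5.47).

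Basophils held more of most of the tested cytokine and chemokine genes. Of 11 tested genes of chemokines and their receptors, 2 were higher in mast cells and 9 lower. Of 11 tested cytokine genes, 1 was higher and 8 lower. Genes were tested on the UMIs of both cell types together, 315925 in ACD mast cells and 889769 in ACD basophils. Genes abundant in basophils therefore entered more easily than genes abundant in mast cells. For this reason the counts describe the tested genes and are no measure of cytokine and chemokine genes at large. Over all 2738 genes, 18.4% were higher and 22.4% lower. The largest gaps were in *Ccl3*, with 3 UMIs in mast cells and 24412 in basophils (log2 ratio -11.50, -13.77 to -9.95), and *Ccl4*, with 8 and 37910 (-10.72, -11.93 to -9.74). *Ccl6*, *Ifitm1*, *Ccl9*, *Gm12840*, *Kctd12*, *Plac8* and *Il1b* completed the 10 lowest with *Mcpt8*, which the gates fixed. *Il4* had a log2 ratio of -2.15 (-2.67 to -1.68), *Il13* of -4.07 (-4.73 to -3.48), *Il6* of -3.74 (-4.22 to -3.30) and *Osm* of -4.37 (-5.01 to -3.81). *Tnf* was the 1 tested cytokine higher in mast cells, at 1.25 (0.75 to 1.74).

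Shared genes of both cell types differed by degree. *Fcer1a* and *Ms4a2* were higher in mast cells, at 2.62 (2.40 to 2.85) and 1.63 (1.40 to 1.87), while *Fcer1g* held 542 against 1530 UMIs with an interval of -0.15 to 0.14. *Hdc* was lower in mast cells, 211 against 4607 UMIs (-2.95, -3.16 to -2.76), and so were *Gata2* (-1.39, -1.60 to -1.19) and *Alox5ap*, which leukotriene synthesis needs (-5.48, -6.29 to -4.78). *Cpa3* was at 1799 against 398 UMIs (3.67, 3.51 to 3.83). Thinned to 1000 UMIs, 46.2% of mast cells and 97.3% (93.7 to 99.1%) of basophils held *Hdc*, against 0.407% of cartilage cells. The median depth was 1730 UMIs in mast cells and 4041 in basophils.

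**Figure D5:**
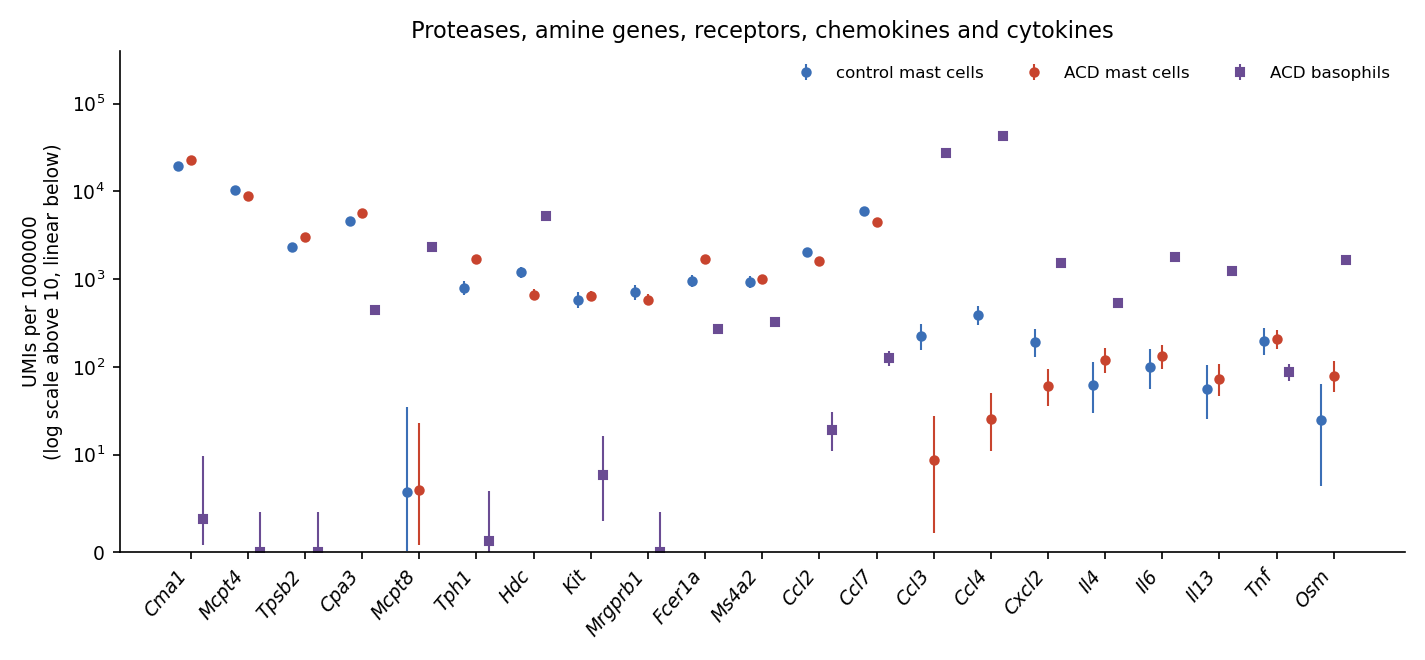
Level (y axis, UMIs per 1000000, log scale above 10 and linear below) of proteases, amine genes, receptors, chemokines and cytokines in control mast cells, ACD mast cells and ACD basophils, with exact 95% Poisson intervals. Control and ACD mast cells lie close together for *Cma1*, *Cpa3*, *Kit* and *Ccl7*, and basophils lie far above both for *Ccl3* and *Ccl4* and far below for *Tph1* and *Ccl2*. *Cma1* was among the genes that chose the mast cells.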

How the data were processed

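Droplet scRNA-seq of ear skin gave 1 control and 1 ACD library. The authors aligned the reads with Cell Ranger (3.1.0 in the file header and labels, another version in the methods) to mm10-1.2.0 and deposited UMI counts per gene and barcode, without normalization. Values were recomputed from these counts with Python 3.11.15, numpy 2.4.6, scipy 1.17.1, pandas 2.3.3, scanpy 1.11.5 and matplotlib 3.10.9. Barcodes outside 200 to 5000 genes (both limits left out), above 25000 UMIs (a limit the methods print as a lower one) or with 8% or more of mitochondrial UMIs were removed, which left more cells than the study states. T cell receptor genes are not in the gene list of the files.

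Cells were gated, not clustered. A level is a UMI sum over the cells of a gate, per 1000000 UMIs. Intervals are exact: Poisson for levels, Clopper-Pearson for shares, conditional binomial for log2 ratios. PCR duplicates are collapsed by UMIs, and intervals do not cover differences between mice. A gene was called at least 2-fold higher or lower on log2 of level plus 10, among genes with at least 50 UMIs. With 0 UMIs in 1 group the fold is a bound from 3 UMIs in that group. Shares used cells thinned to 1000 UMIs, with cartilage cells (at least 10 UMIs and 0.3% of *Col2a1*, *Acan* and *Col9a1*, no *Ptprc*) for comparison.

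Named are the 15 genes highest in mast cells over other kept cells, the 15 genes at each end of ACD against control, the 10 genes at each end of mast cells against basophils, and members of 21 lists of 492 genes by size of ratio and level. The members and lists were chosen with earlier results of these data known. The genes called both with and without mixed cells were named after their values were seen. Alternatives varied the filter on cells, the gate, doublet and mixed-cell removal, the scaling, the UMI minimum, the value added and the depth. Positions are from GENCODE M21 on GRCm38, which held 27645 of 27998 identifiers, and upstream sequences from RefSeq on GRCm38.p6. Results for some listed genes are not reported here.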

Additional observations from a re-analysis of the deposited data

Results flagged for a closer look

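In 3 genes the ratio in mast cells had the opposite sign to that in the other kept cells, both past 2-fold on the log2 of level plus 10 scale. *Arl4c*, a small GTPase, stood at -1.18 in mast cells and 1.14 in the other kept cells, whose level was 37.3 in control and 94.0 in ACD. *Cxcl2* stood at -1.53 in mast cells and 1.26 in the other kept cells, which had 42.2 and 115. *Ccl4* stood at -3.50 in mast cells and 4.22 in the other kept cells, which had 24.4 and 633. The differences between mast cells and other cells were not tested. For *Cxcl2* and *Ccl4*, the control UMIs lay in 1 and 2 mast cells.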

How the results depend on the processing

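No paired analysis was possible because each condition is 1 library, and for the same reason no replicate could be left out. Of 14 alternatives that recomputed the ratios of single genes, *Grp*, *F2r*, *B2m*, *H2-K1* and *Psme2* stayed at least 2-fold higher in all 14, *Ctla2a* and *Tapbp* in 13, *Maob* in 12, *Psmb8* in 11 and *Tph1* in 10, and *Fcer1a* passed 2-fold in 0. The ratio of *B2m* ranged from 1.84 to 2.65, that of *Grp* from 4.37 to 7.76 and that of *H2-D1* from 0.58 to 1.80. *Ccl4* turned to 1.89 with a gate of 10 UMIs and 1% and to 1.55 after thinning to 1000 UMIs. *Cxcl2* turned to 0.81 as a mean over cells, 0.084 after thinning and 2.87 without the deepest cell of each library, an alternative chosen after seeing the data. The log2 ratio of the mast cell share was 1.05 in place of 0.64 with at least 500 genes and under 5% mitochondrial UMIs, which also gave 28 lower genes. The cause of these changes was not tested.

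The counts of called genes moved with the number of UMIs asked for. For higher and lower genes in ACD they were 91 and 191 at 20 UMIs and 6 and 17 at 100 UMIs, and 14 and 13 after thinning. Median-of-ratios scaling gave 38 higher genes, and leaving out mixed cells 17 lower genes. Against basophils, median-of-ratios scaling gave 272 higher and 923 lower genes in mast cells, 100 UMIs 280 and 369, thinning 165 and 187, and 20 UMIs 987 higher genes. With 161275 and 315925 UMIs in all mast cells, genes below 50 UMIs could not be ranked.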

Other observations

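The melanocyte gene *Dct* held 0 UMIs in control mast cells and 36 in ACD mast cells, 33 of them in the deepest ACD cell.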
